A study of Mus musculus with 10 samples.

Results

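The clustered protocadherins were followed at the RNA level in prefrontal cortex, in Arid1b+/- mice (HT) and wild-type mice (WT). The members were the protein-coding genes whose symbols start with Pcdha, Pcdhb or Pcdhg. The annotation holds 57 of them, and 56 of the 18216 genes with values were such members, 14 in the Pcdha, 21 in the Pcdhb and 21 in the Pcdhg cluster. Pcdhb1 was not analysed here. There were 10 male C57BL/6N mice aged postnatal day 10 (P10), 5 HT and 5 WT, with 1 library per mouse and no drug treatment in the labels. HT mice carry 1 Arid1b allele with a protein-truncating CRISPR/Cas9 edit of exon 5, present in every cell from conception, and WT mice carry none. The line was kept on C57BL/6N by mating heterozygous fathers with wild-type mothers. The mice are called HT1 to HT5 and WT1 to WT5 after the numbers in their titles, and no order is implied. Values are normalised counts, which are gene-level read estimates divided by a size factor per library, and their sequencing depth is unknown here.

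Clustered protocadherins are cadherin-like adhesion proteins of neurons and some glia. Each Pcdha and Pcdhg gene has its own first exon, with its own promoter, which encodes the extracellular, transmembrane and first cytoplasmic part, and is spliced to short exons for a cytoplasmic end that the whole cluster shares. Pcdhb genes have a single coding exon and no shared end. Most promoters are chosen at random in each neuron, through DNA methylation, CTCF, cohesin and distant enhancers, so that neighbouring cells carry different sets, and the proteins bind the same isoform on another membrane, which lets branches of 1 neuron recognise and avoid each other. The C-type genes at the 3′ ends of the Pcdha and Pcdhg clusters (Pcdhac1, Pcdhac2, Pcdhgc3, Pcdhgc4 and Pcdhgc5) are known for more regular expression and for roles in axon tiling, dendrite growth and neuron survival. A tissue sample averages over all of these cells.

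The 3 clusters lie side by side on the plus strand of GRCm38 chromosome 18. The Pcdha genes span 36930184 to 37187661, the Pcdhb genes with values 37294812 to 37524479 and the Pcdhg genes 37661793 to 37841873. Of the exonic bases of each Pcdha gene, 2860 were held by at least 10 genes of the cluster, and of each Pcdhg gene 2116 to 2119. The share of 31-base words of a gene's transcripts that also occur in transcripts of other genes was 45.5% to 90.7% for Pcdha, 33.0% to 67.5% for Pcdhg and 5.19% to 22.5% for Pcdhb. The highest share was that of Pcdha4, of whose words 41.1% also occur in transcripts of genes outside the 3 clusters, and for Pcdha6 and Pcdha7 this was 16.4% and 10.4%. For the Pcdhg genes the share outside the 3 clusters was 9.13% to 18.9%, highest for Pcdhgc5. Read-through genes annotated across the Pcdha cluster hold words of Pcdha4, Pcdha6 and Pcdha7. Whether the authors' estimate included these read-through genes is not given in the sources used here. The values of single Pcdha and Pcdhg genes therefore rest on how the estimate divided shared reads, and those of Pcdhb genes much less so.

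The level of each gene was compared per kilobase of exon, as the mean over the 10 mice. The 4 highest of the 56 genes were C-type, with Pcdhgc3 at 987, Pcdhgc4 at 805, Pcdhac2 at 735 and Pcdhgc5 at 597 normalised counts per kb. The 10 mice ranged from 832 to 1234 for Pcdhgc3, from 683 to 969 for Pcdhgc4, from 539 to 793 for Pcdhac2 and from 469 to 687 for Pcdhgc5, so neighbours in this order overlapped. The next gene, Pcdhga11, had 345 per kb, with 296 to 396 over the mice, below every value of the first 4. The C-type gene Pcdhac1 was unlike the other 4, at 61.3 per kb, rank 34 of 56. Pcdhac1 is also the member of the Pcdha cluster's C-type pair that lies farther from the shared exons. The 5 C-type genes made up 42.4% ± 2.42 of the summed level per kb of all members in HT and 41.4% ± 0.608 in WT (SD over 5 mice each).

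Within the Pcdha cluster, Pcdha12 (179 per kb) and Pcdha5 (176) followed Pcdhac2. The lowest were Pcdha8 (6.80), the lowest of all members, and Pcdha1 (44.8), which lies at the 5′ end. Pcdhb genes were low, all between 19.9 and 94.0 per kb. Pcdhb17 (94.0), Pcdhb20 (92.0) and Pcdhb22 (80.8), all in the 3′ part of the cluster, were the highest, and Pcdhb6 (19.9) and Pcdhb4 (23.5), in the 5′ part, the lowest. Among the Pcdhg genes other than C-type, Pcdhga11 was the highest, and Pcdhgb5 (34.1) and Pcdhgb4 (48.3) were the lowest. Levels thus spanned from 6.80 to 987 per kb. Summed per kb, Pcdhg genes held 60.2%, Pcdha genes 26.6% and Pcdhb genes 13.2% of the level of all members.

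**Figure D1:**
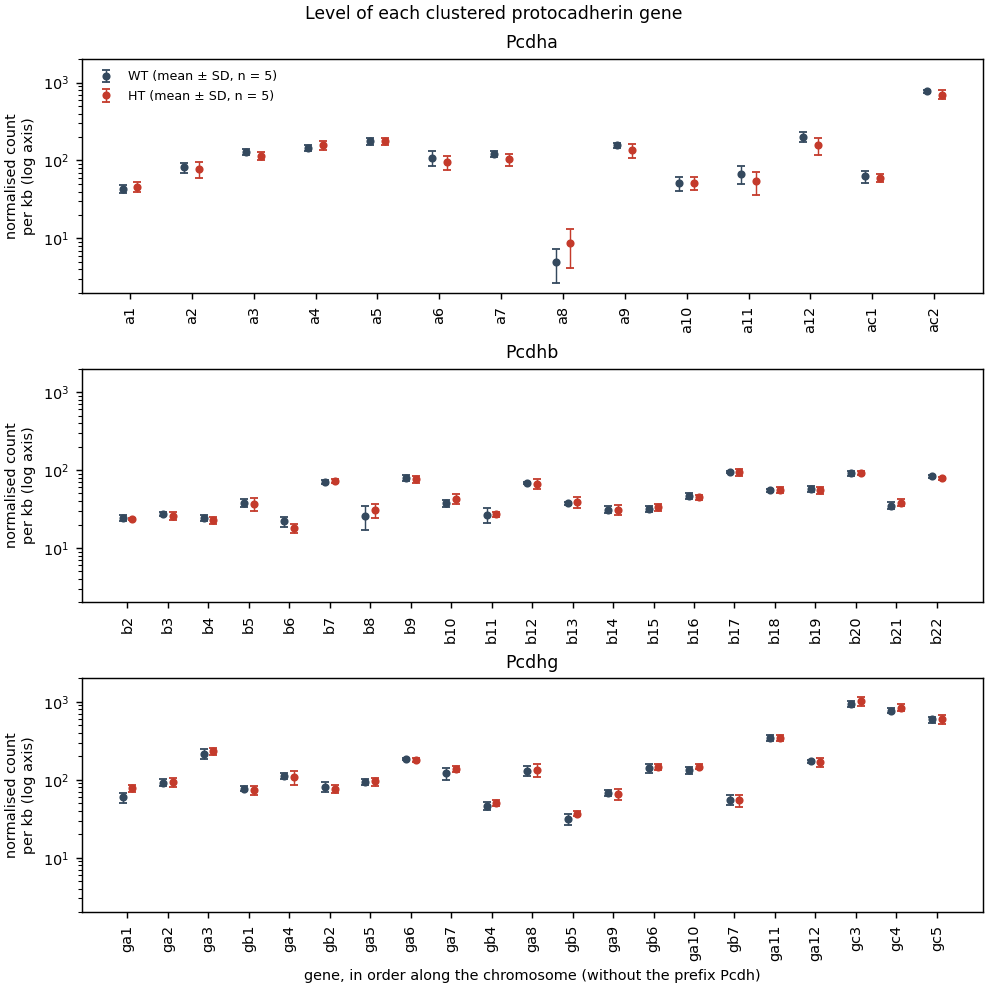
Normalised count per kb of exon (log axis) for each of the 56 genes, in their order along chromosome 18, as the mean and SD of 5 WT (dark) and 5 HT (red) mice. The C-type genes Pcdhac2, Pcdhgc3, Pcdhgc4 and Pcdhgc5 lie highest, with means over all mice from 597 to 987 per kb, and Pcdha8 lies lowest, with a mean of 6.80.

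The genotype labels were checked at the targeted gene. Arid1b (GRCm38 chromosome 17, 4994332 to 5347656) had 1767 to 1987 in HT and 2662 to 3018 in WT, without overlap, and its limma log2 fold change was -0.59 (SE 0.048, limma adjusted p 9.96e-05). Cell type marker lists were compared by how many of their genes had a log2 fold change above 0, where 48.8% of all genes did. The counts were 10 of 10 for astrocytes, 10 of 10 for microglia, 10 of 10 for the oligodendrocyte lineage, 10 of 10 for olfactory bulb, 12 of 13 for striatum, 9 of 10 for endothelial and mural cells, 5 of 12 for neurons, 4 of 8 for upper and 4 of 7 for deep cortical layers, 4 of 8 for meninges and 2 of 5 for choroid plexus. At an unadjusted p under 0.05 there were 6 astrocyte, 3 microglia, 3 upper-layer, 2 deep-layer, 2 choroid plexus and 1 each of the neuron, oligodendrocyte, endothelial and olfactory bulb markers, where 9.23% of all genes reached it. Astrocyte markers summed to 160362 to 204110.0 in HT and 146254 to 172826 in WT, microglia markers to 11011 to 15378 in HT and 10722 to 12337 in WT and neuron markers to 191291 to 237343 in HT and 219293 to 242250.0 in WT. Markers of striatum, a neighbour of the dissected cortex, varied widely within both groups, at 7833 to 24055 in HT and 6841 to 19014 in WT, and of the 13 only Isl1 was listed at 0, in WT3 and WT5. Cortical layer markers were present in every mouse, with sums of at least 21477 for upper and 7673 for deep layers. Choroid plexus markers, of which 5 of 8 had values, summed to at most 211. Summed markers of the oligodendrocyte lineage were 65800.5 to 89765 in HT and 38667 to 92337 in WT, of endothelial and mural cells 14624 to 20050.5 in HT and 14869 to 16625 in WT, of meninges 6213 to 9829.5 in HT and 7882 to 9012 in WT and of olfactory bulb 4682 to 10119 in HT and 4454 to 9192 in WT.

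The first comparison asked whether the amount of RNA from each cluster differed between the genotypes. The summed normalised count of the 14 Pcdha genes was 11849.8, 8685, 11975, 11446 and 10572 in HT1 to HT5 and 12142, 11748, 12046, 11510.3 and 12204 in WT1 to WT5. Its mean was 10906 ± 1358 for HT against 11930.1 ± 293 for WT (SD, n = 5 each), 91.4% of the WT level. The lower HT mean rested mainly on HT2, the lowest of the 10 mice, and HT3 and HT1 lay inside the WT range. Without HT2 the HT mean was 11461 ± 634 (SD, n = 4), 96.1% of WT. HT2 was also the mouse with the lowest sum of neuron markers, 191291 against 224897 to 237343 in the other HT mice, and the highest of astrocyte markers, 204110.0 against 160362 to 194630.0. Its olfactory bulb markers summed to 10119, against 4682 to 6722 in the other HT mice and up to 9192 in WT. It also had the highest sums of microglia, endothelial and mural, and choroid plexus markers and the lowest of deep-layer markers. The part of these markers in the Pcdha level was not tested for the sum. In bulk tissue fewer cells of a type, less RNA per cell and a different dissection cannot be told apart.

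The 21 Pcdhb genes summed to 4622, 4025, 4629, 4312 and 4171 in HT1 to HT5 and 4384, 4442, 4439, 4584 and 4132 in WT1 to WT5. The means were 4352 ± 270.0 for HT against 4396 ± 165 for WT (SD, n = 5 each), and the HT level was 99.0% of WT. HT2 was again the lowest mouse, but the groups overlapped over nearly their whole range. The 21 Pcdhg genes summed to 26425, 25927, 26221, 25284 and 27025 in HT1 to HT5 and 25478, 25147, 24197, 25606 and 24086 in WT1 to WT5. The means were 26176 ± 641 for HT against 24903 ± 716 for WT (SD, n = 5 each), with HT at 105% of WT, a log2 ratio of 0.072, which was 0.034 when the median of each gene's ratio was taken instead. HT1, HT2, HT3 and HT5 lay above every WT mouse, while HT4 lay below WT1 and WT4. Within the Pcdhg cluster the C-type genes stood at 107% of the WT level, the 12 A-type genes at 104% and the 6 B-type genes at 102%. Without HT2 these levels were 105%, 106% and 103%, so the order of C-type and A-type genes turned. The total over all 56 members was 41434 ± 1744 for HT against 41229 ± 668 for WT (SD, n = 5 each). All 3 clusters thus overlapped between genotypes, and no test was run on these sums.

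**Figure D2:**
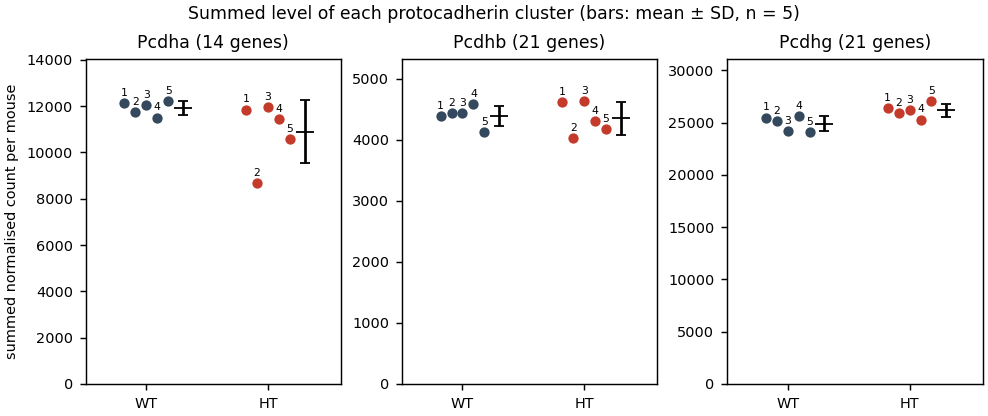
Summed normalised count per mouse of the Pcdha, Pcdhb and Pcdhg genes, with each point a mouse labelled by its number and bars for the mean and SD of 5 mice. HT2 lies lowest in Pcdha at 8685 and in Pcdhb at 4025, and the HT and WT points overlap in each panel.

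Single genes were then compared in a limma fit over all 16781 genes with a mean of at least 10, which all 56 members reached. Of the 56 members, 0 had a limma adjusted p under 0.05, where 0.0179% of all genes tested did, and the smallest adjusted p among members was 0.41. Before adjustment 4 members had a p under 0.05, 2 higher and 2 lower in HT, which is 7.14% against 9.23% of all genes (4.71% higher and 4.52% lower). The members' share was thus close to the background, and the count was 7 without HT3 and 2 without HT5, fits in which 10.9% and 6.73% of all genes reached that p. The 5 HT and 5 WT values lay apart without overlap for 0 members, which 1.62% of all genes did. The fold change was above 0 for 27 members, or 48.2%, against 48.8% of all genes. Half-widths of the 95% interval of the log2 fold change had a median of 0.22 over members and 0.19 over all genes. Differences well below this size were thus not detectable for a typical member even before adjustment. Larger ones did not pass the adjusted threshold either, as for Pcdhga1 with a log2 fold change of 0.39 and a limma adjusted p of 0.41.

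**Figure D3:**
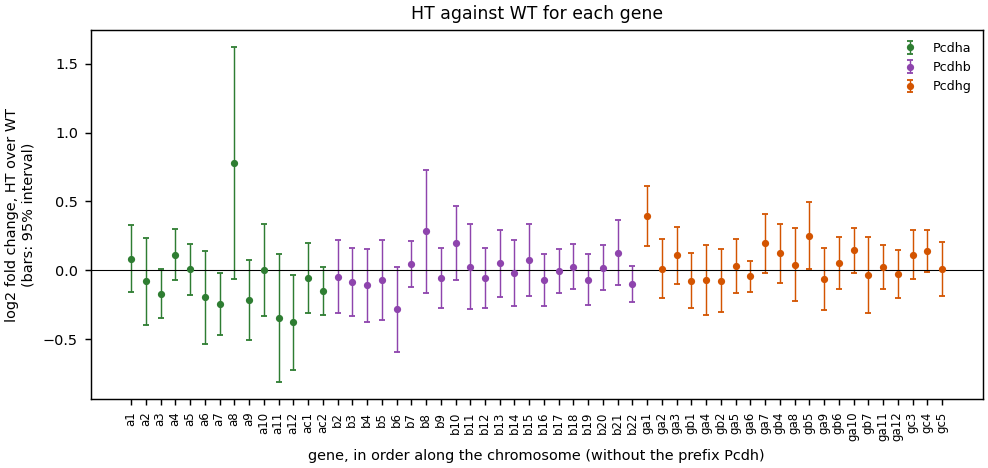
Log2 fold change of HT over WT with its 95% interval from limma for each of the 56 genes, in order along chromosome 18 and coloured by cluster. Intervals of 4 genes leave out 0, Pcdhga1 and Pcdhgb5 above it and Pcdha7 and Pcdha12 below it, before any adjustment, and Pcdha8 has the widest interval, from -0.064 to 1.62.

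Of the Pcdha genes, 10 of 14 had a fold change below 0, against 51.2% of all genes, with a median log2 fold change of -0.11 beside -0.0035 over all genes tested. Without HT2 the count was 8 of 14 and the median -0.056, and without HT3 they were 11 of 14 and -0.19. With the astrocyte marker score as a covariate they were 6 of 14 and 0.046, so the direction of the median turned, and over all 56 members 40 then lay above 0, beside 49.9% of all genes in that fit. Pcdha12, the last alternate isoform before the C-type pair, had normalised counts of 1107, 528, 887, 855 and 815 in HT1 to HT5 and 873, 1123, 931, 1251 and 1178 in WT1 to WT5 (log2 fold change -0.38, SE 0.16, limma adjusted p 0.51, unadjusted p 0.033). HT2 was far below the rest, HT1 and HT3 lay inside the WT range, and without HT2 the log2 fold change was -0.22 with an unadjusted p of 0.074. Over all fits that left out 1 mouse the log2 fold change of Pcdha12 ranged from -0.49 to -0.22. Pcdha7 had 697, 463, 507, 510.1 and 580.3 in HT1 to HT5 and 601, 599, 712, 607 and 728 in WT1 to WT5 (log2 fold change -0.24, SE 0.10, limma adjusted p 0.51, unadjusted p 0.035). Of the HT mice 4 lay below all WT mice and HT1 lay inside their range. Without HT2 the log2 fold change of Pcdha7 was -0.19, with an unadjusted p of 0.091, and leaving out 1 mouse gave -0.33 to -0.19. With the astrocyte covariate it was -0.11 for Pcdha12 (unadjusted p 0.50) and -0.13 for Pcdha7 (unadjusted p 0.29). In the limma fit with that covariate 4.67% of all genes reached an unadjusted p under 0.05, against 9.23% in the main fit. A larger p there is thus not particular to these genes.

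Pcdha8 had the fold change farthest from 0 of all members and also the lowest level. Its normalised counts were 36.3, 27.4, 78.7, 25.1 and 62.8 in HT1 to HT5 and 30.5, 10.3, 33.9, 17.5 and 40.4 in WT1 to WT5 (log2 fold change 0.78, SE 0.39, limma adjusted p 0.55), so that both groups spread over a wide range and overlapped. Without HT2 its unadjusted p was 0.043 (log2 fold change 0.93), and the adjusted p 0.68. The log2 fold change was 0.49 without WT2 and 0.55 without HT3 (unadjusted p 0.18). It was 1.07 with the astrocyte covariate (unadjusted p 0.046) and 0.96 with the striatum covariate (unadjusted p 0.023), and all of its adjusted p-values in these fits exceeded 0.05. Pcdha11 had 237 to 573 in HT and 392 to 724 in WT (log2 fold change -0.35, SE 0.22, limma adjusted p 0.61). HT2 was its lowest and WT5 its highest mouse, and its log2 fold change was -0.17 without HT2 and -0.11 with the astrocyte covariate, but -0.49 without HT3 (unadjusted p 0.036). Pcdha4 had 754 to 1026 in HT and 784 to 969 in WT (log2 fold change 0.11, SE 0.087, limma adjusted p 0.67). Pcdha1 had 218 to 299 in HT and 200.3 to 264 in WT (log2 fold change 0.084, SE 0.11, limma adjusted p 0.82), and Pcdha5 had 772 to 1013 in HT and 829.7 to 1086 in WT (log2 fold change 0.0061, SE 0.087, limma adjusted p 0.99). For these last 3 the difference was within the spread between mice, and leaving out 1 mouse gave 0.064 to 0.18 for Pcdha4, 0.013 to 0.13 for Pcdha1 and -0.031 to 0.070 for Pcdha5.

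Both C-type genes of the Pcdha cluster had means below WT. Pcdhac2, which serotonergic neurons use for the tiling of their axons, had 4363, 3171, 4407, 4448 and 4220.4 in HT1 to HT5 and 4634, 4578, 4667, 4194 and 4606 in WT1 to WT5 (log2 fold change -0.15, SE 0.081, limma adjusted p 0.57). All HT mice were below the WT mean, by a wide gap in HT2, while WT4 lay among the HT mice. Without HT2 the log2 fold change was -0.056 (unadjusted p 0.19), and with the astrocyte marker score as a covariate it was -0.032 (unadjusted p 0.72). Pcdhac1 had 272 to 377 in HT and 288 to 431 in WT (log2 fold change -0.058, SE 0.12, limma adjusted p 0.89). The share of Pcdhac2 in the summed level per kb of its cluster was 36.1% ± 1.51 in HT and 36.4% ± 0.991 in WT (SD over 5 mice each), a difference within the spread between mice. In HT2 it was 34.8%, so the low value of this mouse was shared by alternate and C-type genes.

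In the Pcdhb cluster 0 of 21 genes reached an unadjusted p under 0.05 with limma and 0 an adjusted one, where 9.23% and 0.0179% of all genes did. The fold change was above 0 for 9 genes, against 48.8% of all genes, and below 0 for 12, and the median log2 fold change was -0.018. The median was 0.028 without HT2, 0.013 without HT5, 0.025 with sample quality weights and 0.078 with the astrocyte covariate, with 12, 12, 12 and 15 genes above 0, so its direction turned. It was -0.033 without HT3 and -0.041 with the striatum covariate, with 15 and 13 genes below 0. Fold changes of single Pcdhb genes lay between -0.28 and 0.28. Pcdhb6, at the lower end, had 57.9, 64.7, 80.1, 68.1 and 64.4 in HT1 to HT5 and 80.4, 71.0, 93.4, 96.2 and 69.6 in WT1 to WT5 (log2 fold change -0.28, SE 0.14, limma adjusted p 0.56), and every HT mouse was below the mean of WT but only HT1, HT2, HT4 and HT5 below every WT mouse. Without HT3 its log2 fold change was -0.35 (unadjusted p 0.036), and with the astrocyte covariate -0.18 (unadjusted p 0.32). Pcdhb4 had 72.0 to 91.5 in HT and 76.6 to 99.2 in WT (log2 fold change -0.11, SE 0.12, limma adjusted p 0.78). At the upper end Pcdhb8 had 78.4 to 138 in HT and 59.4 to 142 in WT (log2 fold change 0.28, SE 0.21, limma adjusted p 0.66), and Pcdhb10 had 107 to 151 in HT and 91.6 to 120.0 in WT (log2 fold change 0.20, SE 0.12, limma adjusted p 0.61). Of the HT mice 4 lay above the WT mean for Pcdhb8 and 5 for Pcdhb10, but the groups overlapped. When 1 mouse was left out, the log2 fold change ranged from 0.15 to 0.46 for Pcdhb8, from 0.12 to 0.25 for Pcdhb10 and from -0.17 to -0.056 for Pcdhb4. For Pcdhb8 these ends were reached without WT5 and without WT4, the latter at an unadjusted p of 0.020. The intervals of the 3 genes with the highest level per kb were narrow and held 0. Pcdhb17 had a log2 fold change of -0.0068 (95% interval -0.17 to 0.15), Pcdhb20 of 0.018 (-0.15 to 0.18) and Pcdhb22 of -0.10 (-0.23 to 0.031).

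In the Pcdhg cluster 14 of 21 genes had a fold change above 0, with a median of 0.031, and 2 reached an unadjusted p under 0.05, both higher in HT, against 48.8% of all genes above 0 and 4.71% called higher. Without HT3 the count above 0 was 10 and the median -0.015. Those values were 15 and 0.074 without HT2, 13 and 0.017 without HT5, 16 and 0.056 with sample quality weights, 17 and 0.083 with the astrocyte covariate, and 11 and 0.00085 with the striatum covariate. Pcdhga1, the gene at the 5′ end of the cluster, had the smallest p of all members. Its normalised counts were 452, 364, 425, 383 and 459.9 in HT1 to HT5 and 329, 385, 321, 270.3 and 285 in WT1 to WT5, with means of 417 ± 42.1 for HT against 318 ± 44.7 for WT (SD, n = 5 each) (log2 fold change 0.39, SE 0.10, limma adjusted p 0.41, unadjusted p 0.0019). Each of the 5 HT mice exceeded the WT mean, and HT1, HT3 and HT5 lay above every WT mouse, while WT2 lay above HT2 and HT4. Its unadjusted p was also under 0.05 without HT2 (0.0010) and with the astrocyte (0.011) or striatum (0.0029) marker score as a covariate. Pcdhgb5 had 243, 261, 225, 273 and 239 in HT1 to HT5 and 179, 179.9, 230.1, 260.1 and 202 in WT1 to WT5 (log2 fold change 0.25, SE 0.11, limma adjusted p 0.52, unadjusted p 0.042). Each HT mouse exceeded the WT mean, and WT3 and WT4 lay inside the HT range. The log2 fold change of Pcdhgb5 was 0.23 without HT2 (unadjusted p 0.079), 0.29 with the astrocyte covariate (unadjusted p 0.061) and 0.26 with the striatum covariate (unadjusted p 0.053), so its size was similar while the p passed 0.05.

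Pcdhgb1 had 348 to 494 in HT and 408 to 491 in WT (log2 fold change -0.076, SE 0.094, limma adjusted p 0.80). Pcdhgb2 had 333 to 432 in HT and 339 to 456 in WT (log2 fold change -0.075, SE 0.11, limma adjusted p 0.83). These were the lowest fold changes of the Pcdhg cluster and lay within the spread between mice, with a range of -0.13 to -0.0087 for Pcdhgb1 and -0.13 to -0.024 for Pcdhgb2 when 1 mouse was left out. Pcdhgb4 had 267 to 331 in HT and 223 to 313 in WT (log2 fold change 0.12, SE 0.099, limma adjusted p 0.69), with 4 of 5 HT mice above the WT mean and a log2 fold change of 0.058 to 0.18 when 1 mouse was left out. The other Pcdhg genes, without the C-type, had log2 fold changes between -0.071 and 0.19. Of these, Pcdhga3 went from 0.11 to 0.27 with the astrocyte covariate (unadjusted p 0.012) and Pcdhga10 from 0.15 to 0.19 without HT2 (unadjusted p 0.017). In the Pcdha cluster, Pcdha3 reached an unadjusted p of 0.020 without HT3 (log2 fold change -0.22) and of 0.014 with the striatum covariate. The choice of these 3 was made with their values in view, and their adjusted p-values exceeded 0.05 in each of these fits.

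**Figure D4:**
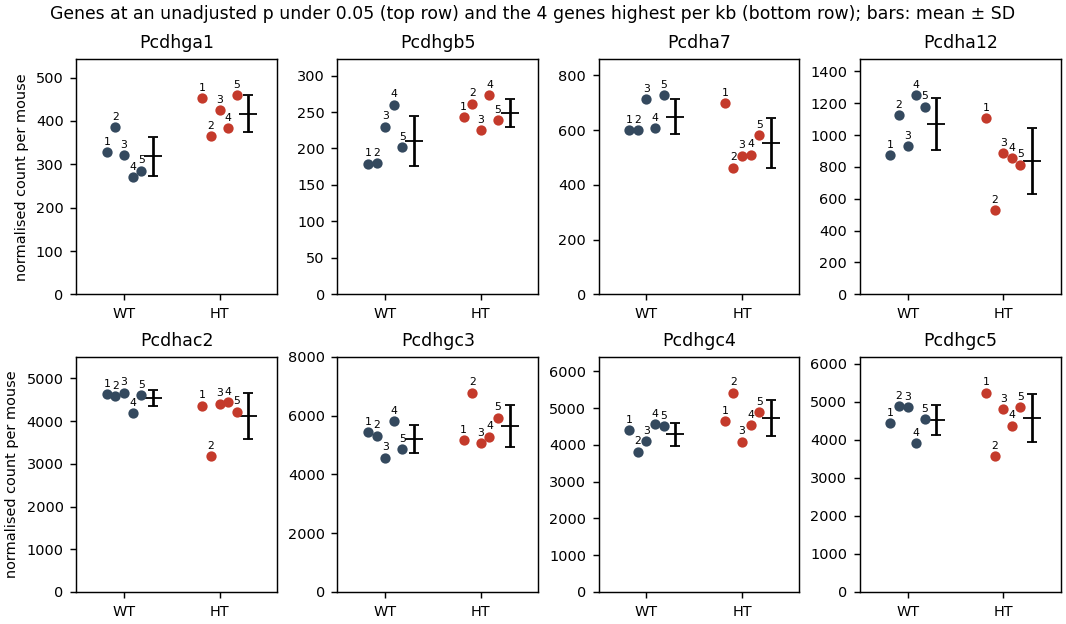
Normalised count of 8 genes in each mouse, labelled by its number, with the mean and SD of each group of 5. The top row holds the 4 genes at an unadjusted p under 0.05 and the bottom row the 4 genes highest per kb, in which HT2 lies lowest for Pcdhac2 (3171) and Pcdhgc5 (3578) and highest for Pcdhgc3 (6788) and Pcdhgc4 (5425).

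Among the 3 adjacent C-type Pcdhg genes, the same mice were highest for Pcdhgc3 and Pcdhgc4 but not for Pcdhgc5. Pcdhgc3, which can bind Axin1 and restrain Wnt signalling and is also used by astrocytes, had 5158, 6788, 5064, 5289 and 5937 in HT1 to HT5 and 5446, 5324, 4574, 5812 and 4863 in WT1 to WT5 (log2 fold change 0.11, SE 0.084, limma adjusted p 0.65). Pcdhgc4, the isoform on which neuron survival in the Pcdhg cluster depends, had 4655, 5425, 4093, 4549.8 and 4896 in HT1 to HT5 and 4401, 3820.2, 4109.6, 4575 and 4514 in WT1 to WT5 (log2 fold change 0.14, SE 0.071, limma adjusted p 0.56). HT2 and HT5 were the highest 2 mice for both genes. Pcdhgc5, which is known from maturing neurons, had 5239, 3578, 4811, 4368 and 4863 in HT1 to HT5 and 4439, 4884, 4859, 3916 and 4546 in WT1 to WT5 (log2 fold change 0.0061, SE 0.092, limma adjusted p 0.99), and here HT2 was the lowest of all mice. HT2 and HT5 were also the 2 mice with the highest sums of astrocyte markers (204110.0 and 194630.0). The same 2 mice were highest for the sums of microglia (15378 and 14901), meninges (9748 and 9830) and choroid plexus markers (211 and 187). Which cells gave the higher values was not tested. With the astrocyte marker score as a covariate the log2 fold change was -0.041 for Pcdhgc3 and 0.049 for Pcdhgc4 (unadjusted p 0.60 and 0.55), and without HT2 it was 0.046 and 0.087. Without HT3 it was 0.15 for Pcdhgc3 (unadjusted p 0.11) and 0.19 for Pcdhgc4 (unadjusted p 0.014).

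The spread between mice was examined last among the members. HT2 was the lowest of the 10 mice for 16 of 56 members (28.6%), against 21.8% of all genes tested, and for 8 of the 14 Pcdha genes. It was the lowest for 4 of 21 Pcdhb and 4 of 21 Pcdhg genes. HT3 was the highest for 11 members (19.6%, against 8.68% of all genes tested) and the lowest for 0, against 7.86% of all genes. HT3 had the highest sum of striatum markers (24055). The coefficient of variation within WT mice had a median of 13.2% over Pcdha, 8.92% over Pcdhb and 9.97% over Pcdhg genes, beside 8.60% over all genes tested. Within HT it was 17.6%, 10.2%, 11.8% and 10.0%. Pcdha8 varied most, by 46.5% in WT, and Pcdhb17 least, by 2.09%.

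**Figure D5:**
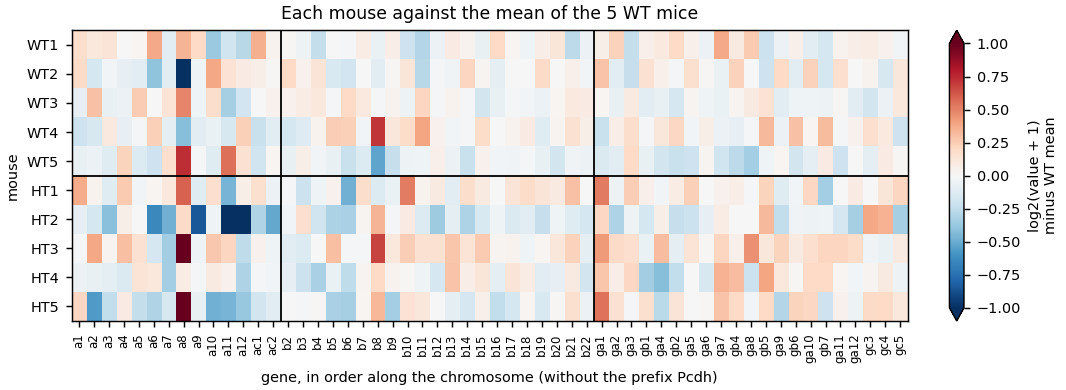
Log2(value + 1) of each gene in each mouse minus the mean of the 5 WT mice, with genes in order along chromosome 18, cluster borders as vertical lines and values beyond 1 in either direction shown at the end of the scale. HT2 is blue over most Pcdha genes, with 8 of 14 lowest in this mouse, and red at Pcdhgc3 and Pcdhgc4.

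Genes that act on the clusters were read from the same fit. CTCF and cohesin bring an enhancer to the chosen promoter, and of 14 such genes 1 reached an unadjusted p under 0.05 and 0 an adjusted limma p under 0.05, and their log2 fold changes had a median of 0.025. Of all genes 9.23% reached that unadjusted p. Stag1, a cohesin subunit, had 1487, 1695, 1466, 1445 and 1527 in HT1 to HT5 and 1272, 1244, 1408, 1302 and 1302 in WT1 to WT5 (log2 fold change 0.22, SE 0.054, limma adjusted p 0.38, unadjusted p 0.0012). All HT values lay above all WT values, which 0.703% of all genes did, but the adjusted p missed the threshold. Ctcf had a log2 fold change of 0.064 (SE 0.050), the cohesin subunit Rad21 of 0.059 (SE 0.046) and Wapl, which releases cohesin from DNA, of 0.021 (SE 0.049). Of 18 genes of DNA methylation and silencing, 1 reached an unadjusted p under 0.05, below the share over all genes, and 0 an adjusted one. This was Trim28, a corepressor that recruits Setdb1, with 3132 to 3682 in HT and 2907 to 3315 in WT (log2 fold change 0.13, SE 0.058, limma adjusted p 0.53). Smchd1, which represses the Pcdhb cluster, had a log2 fold change of 0.066 (SE 0.068). Setdb1, a histone methyltransferase, had -0.048 (SE 0.053) and Wiz, a zinc finger protein bound at Pcdh promoters, -0.030 (SE 0.048). Dnmt3b, the methyltransferase that marks these promoters in the embryo, was low at P10, with 15.0 to 60.1 in HT and 28.9 to 67.9 in WT.

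Proteins that act downstream were covered by 3 lists. Of 12 kinases and their partners 1 reached an unadjusted p under 0.05, of 10 genes of the WAVE complex, which builds branched actin, 0, and of 10 genes of cleavage and synaptic partners 0, while 0, 0 and 0 had an adjusted limma p under 0.05. The unadjusted share over all genes was 9.23%. The kinase was Prkca, a protein kinase C, a family that phosphorylates the shared Pcdhg end, with 5242 to 6161 in HT and 6093 to 6888 in WT (log2 fold change -0.16, SE 0.050, limma adjusted p 0.47), and -0.10 with the astrocyte marker score as a covariate. Ptk2b, a kinase that Pcdha and Pcdhg proteins inhibit, had a log2 fold change of 0.020 (SE 0.064). Ncstn, a subunit of the gamma-secretase that cleaves Pcdhg proteins, had 2268 to 2349 in HT and 2112 to 2247 in WT, without overlap, where 0.703% of all genes lay apart in that direction, at a log2 fold change of 0.075 and an unadjusted limma p of 0.066. It was named after its values were seen.

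The most closely related genes outside the clusters are the delta protocadherins, single genes with their own cytoplasmic ends, and the classical cadherins. Of 10 delta protocadherins 8 had a fold change below 0, 2 of them at an unadjusted p under 0.05 and 0 at an adjusted limma p under 0.05, with a median of -0.071. Over all genes tested 51.2% were below 0 and 9.23% reached that p. Pcdh19, a gene of female-limited epilepsy, had 2068 to 2572 in HT and 2543 to 2999 in WT (log2 fold change -0.19, SE 0.066, limma adjusted p 0.48), and -0.10 with the astrocyte marker score as a covariate. Pcdh8, an activity-regulated member, had 938 to 1039.9 in HT and 1014 to 1167 in WT (log2 fold change -0.14, SE 0.056, limma adjusted p 0.50). Pcdh9 and Pcdh17 had log2 fold changes of -0.012 (SE 0.092) and -0.080 (SE 0.068). Of 18 classical cadherins tested 3 reached an unadjusted p under 0.05, all lower in HT, where 4.52% of all genes did, 0 an adjusted one, and the median was -0.11. Cdh15, a cadherin known from muscle and cerebellum, had 81.2, 68.6, 95.1, 84.6 and 80.0 in HT1 to HT5 and 108, 106, 123, 133 and 124 in WT1 to WT5, without overlap (log2 fold change -0.53, SE 0.12, limma adjusted p 0.35), where 0.918% of all genes lay apart in that direction. Cdh8 had 2083 to 3296 in HT and 2857 to 3727 in WT (log2 fold change -0.24, SE 0.10, limma adjusted p 0.52) and Cdh11 2928 to 3819 in HT and 3558 to 3875 in WT (log2 fold change -0.16, SE 0.065, limma adjusted p 0.51), both cadherins of the developing forebrain. With the astrocyte marker score as a covariate the log2 fold change was -0.022 for Cdh8 and -0.061 for Cdh11, and without HT2 it was -0.14 and -0.12. Cdh2, N-cadherin, had a log2 fold change of 0.031 (SE 0.045). The median over these lists and over the members was not tested against other genes.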

How the data were processed

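RNA from the prefrontal cortex was sequenced in 10 libraries. As the methods state, the authors made poly-A libraries, estimated transcript abundance with Salmon 1.1.0 against GRCm38 with GC-bias correction, summed it to genes with tximport and divided it by DESeq2 1.30.1 size factors. The deposited values are thus a normalised signal per gene and not whole reads (at most 15.5% of low values were whole multiples of 1 step, within 0.02), so no count test was run. Totals were 31106330.0 to 32106791 per library.

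Symbols, positions and exon lengths came from GENCODE M21 (GRCm38), in which 18205 of 18216 genes were found. It gives the symbol Pcdha11 to 2 genes, and the one whose start lies 117 bases from that of Pcdha10 in RefSeq (GRCm38.p6) is called Pcdha10 here. Groups came from sample titles. Values were tested as log2(value + 1) with limma 3.58.1 in R 4.3.3 (mean-variance trend, genotype only) over 16781 genes with a mean of at least 10, with Benjamini-Hochberg adjustment over all of them and a threshold of 0.05. Log2 fold changes are on that scale, which understates changes of low genes. P-values measure the spread between mice. The members and the gene lists were chosen with earlier results of these data known. Named genes were the C-type members; per cluster the 3 highest and 2 lowest per kb and the 2 largest fold changes in each direction; members and related genes at an unadjusted p under 0.05; members without overlap; Arid1b; and 12 related genes set by name. The fits were tested on simulated data. Marker scores were sums of z-scores. The alternatives tried changed the pseudocount (0.5 or 10), the filter (none or a mean of 50), the scaling (upper-quartile or quantile) and the trend (none), or added sample quality weights, a replicate block or a marker-score covariate, or left out each mouse in turn.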

Additional observations from a re-analysis of the deposited data

Results flagged for a closer look

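Within each group of 5 mice, the 56 members and the 3 cluster sums were examined for a mouse set apart from the others, by the ratio of its gap from the nearest mouse to the whole range, with 0.71 as the critical value. Of 118 sets of 5 values 10 passed, where chance gives about 5.9. HT2 stood apart for Pcdha9 at 462, below 764 to 825 in the other HT mice, and for Pcdhac2 at 3171, below 4220.4 to 4448 in the other HT mice, and for Pcdhga10 at 605, below 703 to 724 in the other HT mice. WT1 stood apart for Pcdha9 at 956, above 773 to 824 in the other WT mice, and for Pcdhb16 at 280.0, above 229 to 243 in the other WT mice, and for Pcdhga7 at 815, above 545 to 602 in the other WT mice. HT1 stood apart for Pcdhb7 at 275, above 242 to 248 in the other HT mice. HT3 stood apart for Pcdhga8 at 836, above 524 to 609.8 in the other HT mice. WT4 stood apart for Pcdhac2 at 4194, below 4578 to 4667 in the other WT mice. WT5 stood apart for Pcdha4 at 969, above 784 to 833 in the other WT mice. A mouse of each genotype was set apart for Pcdha9, in opposite directions, and for Pcdhac2, both towards low values.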

How the results depend on the processing

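The number of members with a limma adjusted p under 0.05 was 0 under all 11 alternatives that kept all mice and 0 in the 10 fits that each left out 1 mouse. The number at an unadjusted p under 0.05 was 2 with sample quality weights (main 4), a fit in which 8.74% of all genes reached it. It was from 2 to 7 when 1 mouse was left out, being 7 without HT3 and 2 without HT5. In the related lists the number at an unadjusted p under 0.05 was 8, and from 4 to 10 when 1 mouse was left out. It was 5 without WT3 and 4 without WT5, where the share of all genes was 6.46% and 7.41% instead of 9.23%. Pcdhga1 kept its direction under every alternative, from 0.34 to 0.47. Of the 56 members, the fold change turned direction in 15 with the astrocyte marker score as a covariate, 5 with the striatum score and 6 with sample quality weights. Among the genes named by the rule, members or not, those that turned were, with the astrocyte score, Pcdhac1 (0.053), Pcdhgc3 (-0.041), Pcdhb17 (0.10), Setdb1 (0.014), Pcdh9 (0.12) and Pcdh17 (0.037). Others were, with the striatum score, Pcdha5 (-0.014) and Pcdhb20 (-0.0019), with quantile normalisation Pcdhb20 (-0.0076) and Pcdh9 (0.012), and with sample quality weights Pcdhb17 (0.034) and Pcdh9 (0.035). Leaving out 1 mouse turned the direction in at least 1 fit, among these named genes, for Pcdhac1 (-0.11 to 0.031), Pcdhgc5 (-0.046 to 0.091), Pcdha5 (-0.031 to 0.070), Pcdhb17 (-0.041 to 0.036), Pcdhb20 (-0.027 to 0.049), Dnmt3b (-0.22 to 0.27), Wiz (-0.047 to 0.0011), Ptk2b (-0.013 to 0.083) and Pcdh9 (-0.064 to 0.072). The cause was not tested. The log2 ratio of summed levels was -0.17 to -0.058 for Pcdha, -0.038 to 0.012 for Pcdhb and 0.060 to 0.084 for Pcdhg when 1 mouse was left out. The Pcdhb ratio was -0.041 with quantile normalisation (main -0.015), and with the median of each gene's ratio in place of the ratio of sums Pcdhg stood at 0.034 (main 0.072). Dnmt3b and Pcdha8 could not be tested with a filter at a mean of 50. With the length of the longest transcript the same 4 C-type genes were highest per kb, but Pcdhgc5 (788) passed Pcdhac2 (735), and Pcdhgb7 (55.1) in place of Pcdhgb4 (60.2) was the second-lowest Pcdhg gene. With the replicate number as a block, 6 members had an unadjusted and 0 an adjusted p under 0.05, 9 related genes an unadjusted one (8.99% of all genes), and Arid1b a log2 fold change of -0.59. Same-numbered mice shared only a number: the correlations of their deviations lay between -0.041 and 0.10. Depth is unknown, so precision rests on the spread between 5 mice per group, and the values of single Pcdha and Pcdhg genes also carry the division of shared reads, whose error was not analysed here.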

Other observations

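Pcdhgb8, a polymorphic pseudogene in GENCODE M21 that lies between Pcdhga11 and Pcdhga12 and carries the shared Pcdhg exons, was not counted among the members. Its normalised counts were 64.8, 46.2, 54.0, 29.5 and 44.2 in HT1 to HT5 and 37.7, 63.8, 21.4, 58.2 and 59.0 in WT1 to WT5 (log2 fold change 0.047, SE 0.29, limma adjusted p 0.97), and at 10.4 per kb it lay below every Pcdhg member.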
